A study of Mus musculus with 8 samples.

Results

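The B cell receptor signals through a pair of chains, and coreceptors and phosphatases on the same membrane set how strongly it does so. The 7 genes described here are Cd79a and Cd79b, which encode those signal chains, Cd81, a tetraspanin of the activating coreceptor complex, the inhibitory receptor genes Cd22, Cd72 and Fcgr2b, and Ptpn6, which encodes the phosphatase SHP-1. They were chosen by function. All 7 were found by symbol in the probe annotation, each with 1 probe set, among 8252 named genes on the array. Intensities were compared across 4 groups of sorted mouse B cells with 2 arrays each.

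The mice were QMxB6 F1 animals. Each sample pooled cells of 4 to 10 of them, and the study describes its replicates as biological. QM mice are known for a rearranged heavy chain gene for an antibody to the hapten NP, so the B cells of this cross include many that can bind it. After magnetic enrichment of the germinal centre cells, resting B cells were sorted as GL7-negative and B220-positive from mice that had not been immunised, and germinal centre B cells as GL7-positive and B220-positive. The T-independent group (TI day 4) was given 30 µg of NP-Ficoll intraperitoneally and taken on day 4. Mice of the TD day 4 group (T-dependent, carrier primed) first received 50 µg of chicken gamma-globulin (CGG) precipitated in alum, with heat-killed B. pertussis. Soluble NP-CGG (50 µg) followed after 5 weeks, and cells were collected 4 days later. Mice of the TD day 10 group had no priming and were given 50 µg of NP-CGG in alum with heat-killed B. pertussis, with collection on day 10. The labels give no age, and the groups differ in antigen form, priming, adjuvant and time together. Because each array holds RNA of a sorted population, fewer cells that express a gene and less of its RNA per cell cannot be told apart.

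When antigen binds the receptor, Src family kinases phosphorylate tyrosine motifs in the tails of the Cd79a and Cd79b proteins, and the kinase SYK docks there. CD81 belongs to a coreceptor complex with the complement receptor CR2 that amplifies the signal. CD22 and CD72 carry inhibitory tyrosine motifs that recruit SHP-1, which removes phosphate from the proximal kinases and adaptors. FCGR2B, the inhibitory receptor for IgG in immune complexes, acts mainly through the lipid phosphatase SHIP-1 and limits B cells that meet antigen already bound by antibody. Germinal centre B cells are known for muted receptor signalling and high phosphatase activity.

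The promoters of 4 of these genes are shown because their transcripts went different ways: Cd79a and Cd72 read lower in germinal centre cells, Fcgr2b higher, and Cd81 highest in the T-independent response. Each sequence is the 250 bases before the RefSeq start site on GRCm38.p6, 5′ to 3′ on the gene's own strand. Capitals mark GGAAGT or its reverse ACTTCC, a core that ETS family factors bind, and in Cd81 GGGCGG, the GC box.
Cd79a (chr7:24897247-24897496, plus strand): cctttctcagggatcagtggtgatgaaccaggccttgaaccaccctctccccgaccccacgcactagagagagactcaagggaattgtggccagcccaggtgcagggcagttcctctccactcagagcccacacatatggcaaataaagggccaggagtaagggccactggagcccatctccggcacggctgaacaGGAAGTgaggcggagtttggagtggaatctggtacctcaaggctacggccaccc
Cd72 (chr4:43454627-43454876, minus strand): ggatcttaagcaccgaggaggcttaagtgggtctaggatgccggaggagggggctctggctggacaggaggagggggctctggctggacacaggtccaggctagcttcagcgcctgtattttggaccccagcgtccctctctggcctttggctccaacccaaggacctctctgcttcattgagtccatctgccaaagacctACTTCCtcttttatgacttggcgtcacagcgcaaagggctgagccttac
Fcgr2b (chr1:170976072-170976321, minus strand): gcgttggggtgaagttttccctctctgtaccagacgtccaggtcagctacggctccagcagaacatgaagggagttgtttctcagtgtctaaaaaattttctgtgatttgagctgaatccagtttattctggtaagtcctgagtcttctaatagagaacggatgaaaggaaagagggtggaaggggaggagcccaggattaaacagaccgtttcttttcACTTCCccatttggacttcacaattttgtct
Cd81 (chr7:143052500-143052749, plus strand): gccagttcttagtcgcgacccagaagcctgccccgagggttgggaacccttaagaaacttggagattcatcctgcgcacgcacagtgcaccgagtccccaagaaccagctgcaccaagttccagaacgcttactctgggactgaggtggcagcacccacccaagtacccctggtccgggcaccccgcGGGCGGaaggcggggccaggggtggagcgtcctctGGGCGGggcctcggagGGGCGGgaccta

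The reference table held such a window for 6 of the 7 genes, Cd79b being the one without. The ETS core was present in 4 of the 6 (Cd79a, Cd72, Fcgr2b and Ptpn6), and in 19.7% of all 32851 windows of that length in the table, on either strand. It began 54 bases before the start site in Cd79a, 49 in Cd72 and 31 in Fcgr2b. The GC box was in 2 of the 6, with 3 copies in Cd81 and 5 in Ptpn6, and in 32.7% of all windows. In Cd81 its 2 copies nearest the start overlap matches to the kappa B letters. Of the other motifs searched on both strands, CAGNTG (the E box) was in 5 windows and in 44.8% of all, the kappa B motif (GGG, any 5 bases, CC) in 5 and 45.8%, and CCCNNGGGA (EBF1) in Cd22 and 5.6% of all. ATGCAAAT (the octamer), TATAAA (the TATA box), TTCNNNGAA (STAT) and TGTGGT (RUNX) were in none of the 6 windows. The ETS core stood in genes that read higher and in genes that read lower in germinal centre cells.

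The deposited values are scaled intensities, whose array medians lay between 77 and 89. Values under 81, the median of all values, were set to that floor before log2 was taken, and 7253 of 12488 probe sets passed the filter on dim signal. All 7 genes passed it, and every one of their readings was above the floor, the lowest being 157. The B cell genes Ms4a1 and Pax5 were well above the floor on all 8 arrays. Ebf1, another B cell marker, was dimmer, at 364 and 379 in resting and 89 to 260 on the germinal centre arrays. Bcl6, a transcriptional repressor needed for germinal centres, read 438 to 452 in resting, 846 to 1034 in TI day 4 and 1236 to 1475 in the T-dependent groups. Gcsam, another germinal centre marker, read 156 and 131 in TI day 4, near resting (154 and 101), against 501 to 768 in the T-dependent groups, and Fas was under the floor on all 8 arrays. All 4 germinal centre markers tested had lower means in TI day 4 than in either T-dependent group (medians -0.78 against TD day 4 and -0.94 against TD day 10), and 1 of them, Gcsam, was called in each comparison. Of all probe sets, 0.717% and 1.2% were called lower in these comparisons. Germinal centre marker levels thus moved with the contrasts of TI day 4 below, and their part in those was not tested. The resting arrays also held more RNA of red cells and neutrophils, with summed neutrophil markers of 6741 to 7117 against 1944 to 3009 in the germinal centre arrays. Differences below are in log2 units with the standard error of a linear model of all 8 arrays (limma). A gene is said to rise or fall where the p-value adjusted over all 7253 probe sets (Benjamini-Hochberg) was under 0.05.

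**Figure D1:**
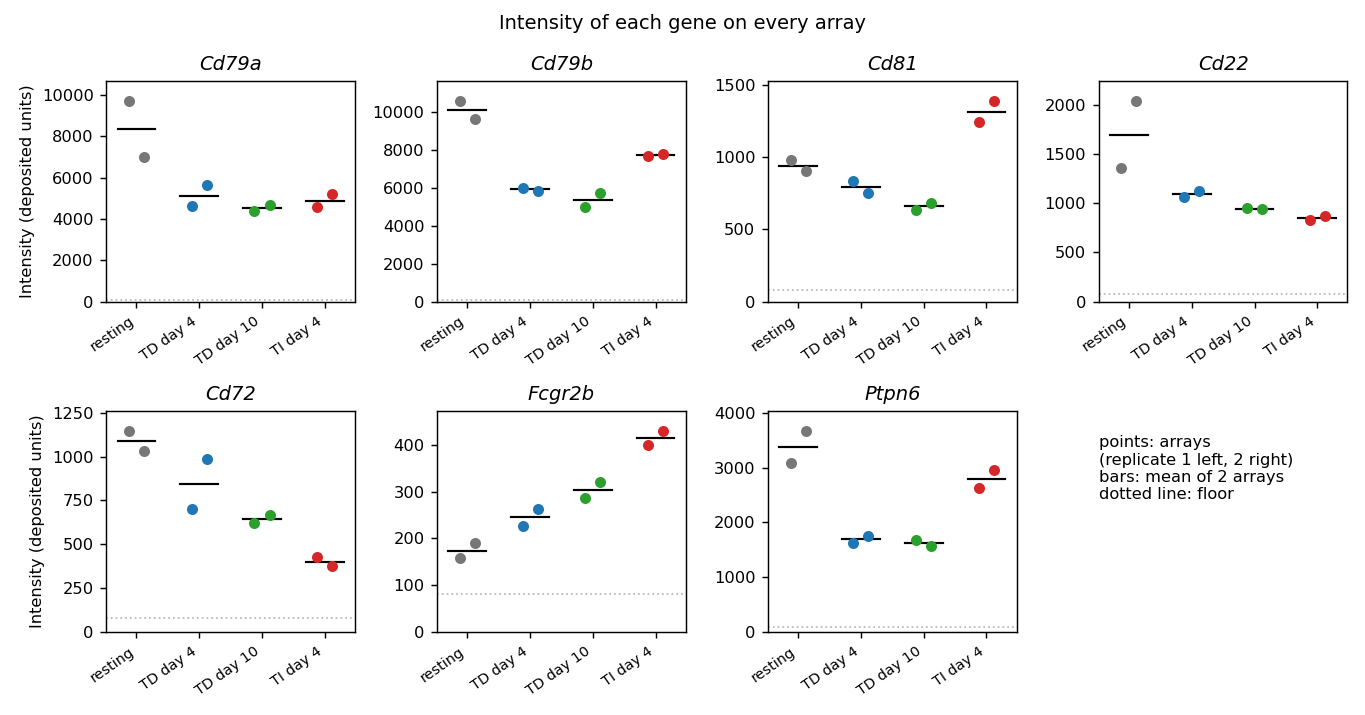
Intensity in deposited units (linear axis from 0) of each gene on each array, with points for single arrays, bars for the mean of the 2 arrays of a group and a dotted line for the floor of 81. Cd79a, Cd79b, Cd22 and Ptpn6 lie highest in resting cells, Cd72 steps down from 1088 in resting to 400.0 in TI day 4 on average, Fcgr2b steps up from 173 to 414, and Cd81 is highest in TI day 4.

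Set against resting B cells, the mean of the 3 germinal centre groups was lower for 5 of the 7 genes and higher for 1. Cd79a, Cd79b, Cd22, Cd72 and Ptpn6 fell by 1.61-fold to 1.82-fold, and Fcgr2b rose 1.82-fold. Over all probe sets tested, 5.5% fell and 7.73% rose in this comparison (13.2% in all). The median difference of the 7 genes was -0.77, and that of all probe sets 0.0041. The remaining gene, Cd81, gave -0.092 ± 0.13 (SE, adjusted p = 0.72), its groups lying on both sides of resting. The 3 groups are compared with the same 2 resting arrays, so these results are not independent of each other.

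Cd79a, the chain also called Ig-alpha, read 9702 and 7003 in resting, 4635 and 5621 in TD day 4, 4405 and 4669 in TD day 10, and 4554 and 5183 in TI day 4. Both resting arrays were above every germinal centre array, and the germinal centre groups overlapped one another. The fall over the germinal centre mean was 0.77 ± 0.18 (SE, adjusted p = 0.038). Group by group the difference from resting was -0.69 in TD day 4 (adjusted p = 0.11), -0.86 in TD day 10 (adjusted p = 0.057) and -0.76 in TI day 4 (adjusted p = 0.089), each with an SE of 0.22, and none passed. The 2 resting arrays were far apart, at 8352.5 ± 1908 (SD, n = 2). Without resting replicate 2 the fall over the mean still passed. It was lost without resting replicate 1 and without any single germinal centre array, with adjusted p between 0.066 and 0.12 and differences from -1.01 to -0.54 over all arrays left out. Quantile normalization also ended it (-0.52, adjusted p = 0.10), as did a lower floor, no filter and array weights (adjusted p 0.060 to 0.091).

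Cd79b, the partner chain Ig-beta, read 10557 and 9614 in resting, 5995 and 5837 in TD day 4, 4979 and 5710 in TD day 10, and 7653 and 7796 in TI day 4. The TI arrays lay between the resting arrays and the T-dependent arrays without touching either. Cd79b fell 1.70-fold in TD day 4 (difference -0.77 ± 0.15, SE, adjusted p = 0.032) and 1.89-fold in TD day 10 (-0.92 ± 0.15, SE, adjusted p = 0.016). In TI day 4 the difference was -0.38 ± 0.15 (SE, adjusted p = 0.21). The fall over the germinal centre mean, 0.69 ± 0.13 (SE, adjusted p = 0.018), was lost only without resting replicate 1 among the arrays left out (adjusted p = 0.052, difference within -0.76 to -0.62). Quantile normalization (-0.46, adjusted p = 0.053) and array weights (adjusted p = 0.055) ended it too. The TD day 4 call was lost without resting replicate 1 and without either array of TD day 4 or of TI day 4 (adjusted p 0.054 to 0.14), and the TD day 10 call without TD day 10 replicate 1 (adjusted p = 0.078). Over these, the TD day 4 difference ranged from -0.84 to -0.70 and the TD day 10 difference from -1.02 to -0.82. The TD day 4 call also went with quantile normalization, a lower floor, array weights or the Gapdh covariate described below (adjusted p 0.053 to 0.064).

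The estimated differences of the pair from resting were close in the T-dependent groups, although only those of Cd79b passed, while in TI day 4 they were -0.76 for Cd79a and -0.38 for Cd79b. Set against TD day 4, TI day 4 showed no called difference for either chain. Cd79b differed by 0.38 (95% interval 0.0092 to 0.76, adjusted p = 0.34) and Cd79a by -0.071 (95% interval -0.60 to 0.45, adjusted p = 0.96). Whether the pair differed from each other in this was not tested.

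Cd81, the tetraspanin of the activating coreceptor, read 979 and 905 in resting, 837 and 752 in TD day 4, 634 and 686 in TD day 10, and 1245 and 1391 in TI day 4. The groups did not overlap, and their order from the top was TI day 4, resting, TD day 4 and TD day 10. Cd81 was 2.00-fold higher in TI day 4 than in TD day 10 (difference 1.00 ± 0.16, SE, adjusted p = 0.036), the 1 of the 7 genes called in that comparison. Over all probe sets 2.4% were called there, 1.2% higher and 1.2% lower. The difference from TD day 4 was 0.73 ± 0.16 (SE, 95% interval 0.34 to 1.12, adjusted p = 0.097). Neighbours in the order did not pass either: TI day 4 against resting gave 0.48 ± 0.16 (SE, adjusted p = 0.13), TD day 4 against resting -0.25 ± 0.16 (SE, adjusted p = 0.45), and TD day 10 against TD day 4 -0.27 ± 0.16 (SE, adjusted p = 0.96).

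The call for Cd81 between TI day 4 and TD day 10 held without either resting array. It was lost without any single one of the 6 germinal centre arrays (adjusted p 0.075 to 0.16), while the difference stayed between 0.92 and 1.08. A lower floor (adjusted p = 0.062) ended it as well. With the ratio of 3′ to 5′ signal of the Gapdh control as a covariate the difference was 1.00 and the adjusted p 0.24. That ratio, read as a measure of RNA quality, was 1.24 and 1.68 on the TI arrays and 0.836 and 0.896 on the TD day 10 arrays, while the resting arrays read 0.867 and 1.59.

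Cd22, a sialic acid-binding receptor that recruits SHP-1, read 1353 and 2036 in resting, 1065 and 1125 in TD day 4, 946 and 942 in TD day 10, and 830 and 870 in TI day 4. Every germinal centre array was below both resting arrays, and the germinal centre groups did not overlap. The fall over the germinal centre mean was 0.79 ± 0.18 (SE, adjusted p = 0.037). Cd22 fell 1.95-fold in TI day 4 (difference -0.97 ± 0.22, SE, adjusted p = 0.047), and in TD day 4 and TD day 10 the differences of -0.60 (adjusted p = 0.17) and -0.81 (adjusted p = 0.071) did not pass. The differences among germinal centre groups were not called, at -0.37 (95% interval -0.90 to 0.17) between TI day 4 and TD day 4.

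The TI day 4 call for Cd22 was lost without any single germinal centre array (adjusted p 0.090 to 0.17) and held without either resting array. The call over the mean was lost without resting replicate 2 or any single germinal centre array (adjusted p 0.062 to 0.090). A lower floor, no filter and array weights ended both calls (adjusted p 0.058 to 0.12), and the TI day 4 call also went with quantile normalization (adjusted p = 0.052) or a common median (adjusted p = 0.063). Across the arrays left out the difference over the mean ran from -1.09 to -0.50 and that in TI day 4 from -1.26 to -0.67, both ends being set by the resting arrays, which read 1694.5 ± 483 (SD, n = 2). The probe set of Cd22, like those of Fcgr2b and Ptpn6, has a name ending in _s_at, which Affymetrix uses for probes that can match more than 1 transcript.

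Cd72, a C-type lectin-like receptor that also recruits SHP-1, read 1145 and 1031 in resting, 699 and 985 in TD day 4, 620 and 665 in TD day 10, and 427 and 373 in TI day 4. The TI arrays were the lowest of all, and the T-dependent arrays lay between them and the resting arrays. Cd72 fell 2.72-fold in TI day 4 (difference -1.44 ± 0.21, SE, adjusted p = 0.011), larger in size than 93.9% of all tested probe sets in that comparison. The difference was -0.39 ± 0.21 (SE, adjusted p = 0.36) in TD day 4 and -0.76 ± 0.21 (SE, adjusted p = 0.079) in TD day 10. For TI day 4 minus TD day 4 it was -1.06 ± 0.21 (SE, 95% interval -1.57 to -0.54, adjusted p = 0.077), and between TI day 4 and TD day 10 -0.69 ± 0.21 (SE, adjusted p = 0.17).

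The TI day 4 fall of Cd72 was lost without resting replicate 1 or either TI array (adjusted p 0.051 to 0.072), with differences from -1.54 to -1.35. The fall over the germinal centre mean, 0.86 ± 0.17 (SE, adjusted p = 0.025), was lost without any single resting, TD day 10 or TI day 4 array (adjusted p 0.051 to 0.10, differences from -0.95 to -0.78), and also with no filter (adjusted p = 0.064) or array weights (adjusted p = 0.095). It held without either TD day 4 array, although those 2 arrays were 842 ± 202 (SD, n = 2) and the least alike for this gene.

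Fcgr2b, the inhibitory Fc receptor, read 157 and 189 in resting, 227 and 263 in TD day 4, 287 and 321 in TD day 10, and 399 and 429 in TI day 4. No 2 groups overlapped, and the order was the reverse of that of Cd72. Fcgr2b rose 2.40-fold in TI day 4 (difference 1.26 ± 0.18, SE, adjusted p = 0.0099) and 1.76-fold in TD day 10 (0.82 ± 0.18, SE, adjusted p = 0.037). In TD day 4 the difference was 0.50 ± 0.18 (SE, 95% interval 0.073 to 0.94, adjusted p = 0.16). TI day 4 exceeded TD day 4 by 0.76 ± 0.18 (SE, adjusted p = 0.12) and TD day 10 by 0.45 ± 0.18 (SE, adjusted p = 0.27), and neither passed.

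The TI day 4 rise of Fcgr2b was lost only without TI day 4 replicate 2 among the arrays left out (adjusted p = 0.060, differences from 1.13 to 1.40), and the rise over the germinal centre mean (0.86 ± 0.15, SE, adjusted p = 0.014) only without resting replicate 1 (adjusted p = 0.051, differences from 0.73 to 1.00). The TD day 10 rise held without resting replicate 2. It was lost without each of the other 7 arrays (adjusted p 0.062 to 0.14, differences from 0.68 to 0.95) and under most other settings, such as a common median (0.70, adjusted p = 0.066), a pseudocount in place of the floor (0.60, adjusted p = 0.064) and array weights (adjusted p = 0.072).

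Ptpn6, the gene of the phosphatase that CD22 and CD72 recruit, read 3077 and 3663 in resting, 1624 and 1755 in TD day 4, 1676 and 1564 in TD day 10, and 2635 and 2948 in TI day 4. The T-dependent groups overlapped each other, and the TI arrays lay above them and below resting. Ptpn6 fell 1.99-fold in TD day 4 (difference -0.99 ± 0.17, SE, adjusted p = 0.019) and 2.07-fold in TD day 10 (-1.05 ± 0.17, SE, adjusted p = 0.013). In TI day 4 the difference was -0.27 ± 0.17 (SE, 95% interval -0.68 to 0.14, adjusted p = 0.43). Set directly against each other, TI day 4 exceeded TD day 4 by 0.72 ± 0.17 (SE, adjusted p = 0.11) and TD day 10 by 0.78 ± 0.17 (SE, adjusted p = 0.080).

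Each T-dependent fall of Ptpn6 was lost without either array of its own group, with adjusted p 0.080 to 0.10 in TD day 4 and 0.064 to 0.072 in TD day 10, and held without any of the other arrays. The differences then ranged from -1.12 to -0.87 and from -1.18 to -0.93. The fall over the mean, 0.77 ± 0.14 (SE, adjusted p = 0.017), was lost only without resting replicate 2 (adjusted p = 0.054, differences from -0.90 to -0.65).

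**Figure D2:**
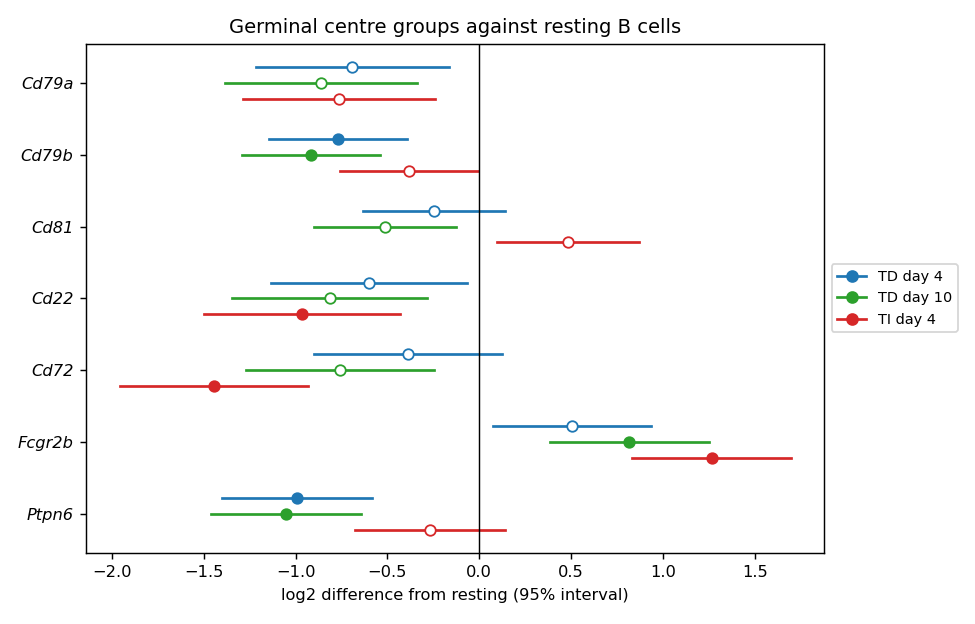
The log2 difference of each germinal centre group from resting cells, with its 95% interval from the linear model of all 8 arrays; filled points passed at an adjusted p under 0.05 and open points did not. In TD day 4 Cd79b and Ptpn6 are filled, in TD day 10 these 2 and Fcgr2b, and in TI day 4 Cd22, Cd72 and Fcgr2b.

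By group, the genes called against resting were Cd79b and Ptpn6, both lower, in TD day 4, where 9.42% of all probe sets were called (3.58% lower and 5.83% higher). In TD day 10 the same 2 were lower and Fcgr2b was higher, beside 10.9% of all probe sets called (4.44% lower and 6.45% higher). The TI day 4 calls were Cd22 and Cd72, lower, and Fcgr2b, higher, beside 9.4% called (3.98% lower and 5.42% higher). Each of these single-group calls was lost when only the 4 arrays compared were fitted, with adjusted p from 0.066 to 0.20. A gene called in one group and not in another is not shown to differ between them, and the tests that bear on this set the germinal centre groups against each other. Between TI day 4 and TD day 4 the 7 genes gave 0 calls in limma, with 5 at an unadjusted p under 0.05 (Cd79b, Cd81, Cd72, Fcgr2b and Ptpn6). Of all probe sets 1.45% were called in that comparison (0.731% higher and 0.717% lower), and 1044 had an unadjusted p under 0.05.

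The directions in that comparison were mixed. Cd79b, Cd81, Fcgr2b and Ptpn6 were higher on both TI arrays than on both TD day 4 arrays, Cd22 and Cd72 were lower, and Cd79a overlapped. The median difference of the 7 genes was 0.38 and that of all probe sets -0.011. Against TD day 10 the same 4 genes were higher on both TI arrays and the same 2 lower, with a median of 0.45 for the 7 genes and -0.075 for all probe sets. Of all probe sets, 46.2% had a positive difference from TD day 4 and 41.2% from TD day 10, against 4 and 5 of the 7 genes. How many of all probe sets separated on both arrays in this way was not counted, so no pattern particular to these genes is shown. TI day 4 takes part in both comparisons with the same 2 arrays.

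Between TD day 10 and TD day 4, 0 of the 7 genes passed and 0 had an unadjusted p under 0.05 in limma, and 0% of all probe sets were called, with 373 of them at an unadjusted p under 0.05. The 95% intervals still allow differences of some size, from -0.69 to 0.35 for Cd79a, from -0.88 to 0.14 for Cd72 and from -0.12 to 0.74 for Fcgr2b. For Ptpn6 the interval was -0.47 to 0.35 around a difference of -0.060.

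**Figure D3:**
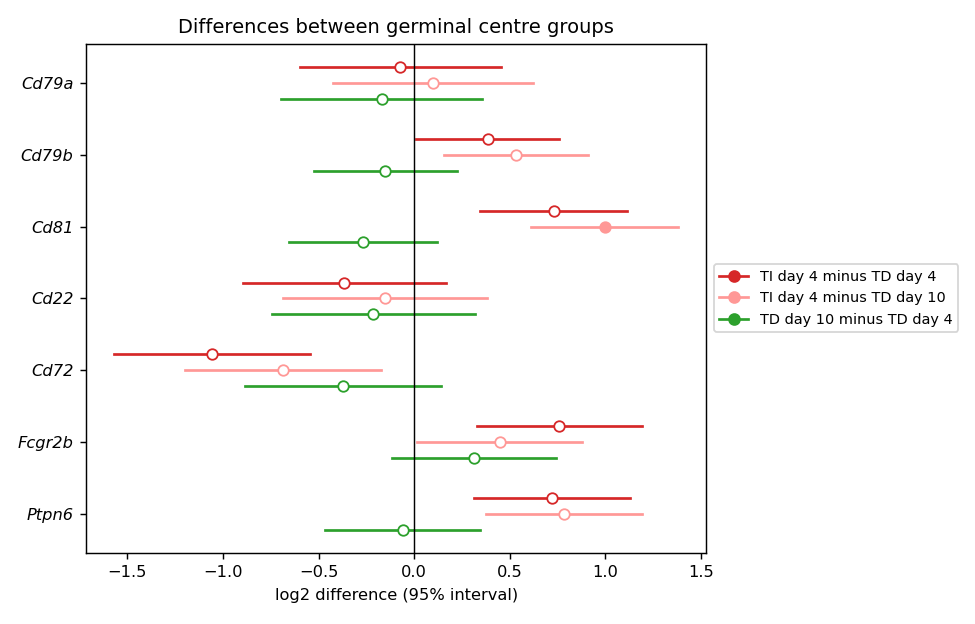
The log2 difference between pairs of germinal centre groups for each gene, with its 95% interval; filled points passed at an adjusted p under 0.05. The filled point is Cd81 between TI day 4 and TD day 10, at 1.00, and the intervals of TD day 10 minus TD day 4 all include 0.

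Several of these genes are also active in cells other than B cells: Fcgr2b and Ptpn6 in macrophages and neutrophils, Fcgr2b in follicular dendritic cells, and Cd81 in most cell types, while plasma cells are known to carry less CD22 and CD72. Plasma cell markers summed to 9726 to 12923 on the TI arrays, 2581 to 3932 on the T-dependent arrays and 1919 to 1965 in resting, over 5 genes on the array. Jchain and Xbp1 made up most of this, while Sdc1 and Prdm1, which define plasma cells, read 106 and 37, and 76 and 63, on the TI arrays, against the floor of 81. Of the 3 plasma cell markers tested, 2 rose in TI day 4 against resting, Jchain by 3.40 and Xbp1 by 1.94, beside 5.42% of all probe sets. The third, Irf4, did not rise, at 125 and 516 in TI day 4 against 292 and 511 in resting. The part of plasma cell RNA in the low Cd72 and Cd22 of TI day 4 was not tested.

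Macrophage markers summed to 7867 to 8404 on the TI arrays, 3718 to 5035 on the T-dependent arrays and 5940 to 6289 in resting, over 17 genes. Apoe, the largest single part of the TI sums, read 4213 and 3371 in TI day 4 against 434 and 775 in resting. Of the 13 markers tested, 7 had a higher mean in TI day 4 than in resting. C1qa, Lyz2 and C1qc were lower there. C1qa read 130 and -13 in TI day 4 against 708 and 597 in resting. Lyz2 read 43 and 51 against 124 and 300, and C1qc -287 and -456 against 177 and 171. Csf1r, a defining macrophage receptor, read 217 and 247 in TI day 4, 124 to 180 on the T-dependent arrays and 231 and 183 in resting. C1qb, a complement gene of macrophages, read 871 and 1066 in TI day 4, 598 to 649 on the T-dependent arrays and 776 and 700 in resting. Cd14 was likewise higher on both TI arrays (824 and 849) than on the T-dependent arrays (540 to 736). Of the 13 macrophage markers tested, 10 had a higher mean in TI day 4 than in TD day 4 and 8 than in TD day 10, with 0 and 1 called by limma and 3 at an unadjusted p under 0.05 in each. Among all 7253 probe sets, 1.45% and 2.4% were called in these comparisons, and 1044 and 1248 had an unadjusted p under 0.05 in limma. A positive difference was seen for 46.2% and 41.2% of them. The macrophage list genes Adgre1, Marco, Mrc1 and Fcer1g were under the floor on every array. Follicular dendritic cell markers summed to 806 to 1010 in TI day 4, 1069 to 1238 in the T-dependent groups and 1014 to 1217 in resting over 5 genes. Cxcl13 of that list was under the floor on all 8 arrays. Of 13 macrophage markers tested 1 rose and 2 fell in TI day 4 against resting, beside 5.42% and 3.98% of all probe sets. C1qa, Lyz2 and C1qc passed the filter on dim signal only through the resting arrays. A fall of these genes therefore supports nothing about the list. Of 9 neutrophil markers 3 fell over the germinal centre mean, beside 5.5% of all probe sets. The part of macrophage RNA in the higher Fcgr2b and Cd81 of TI day 4, and of neutrophil RNA in the higher Ptpn6 of resting cells, was not tested.

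**Figure D4:**
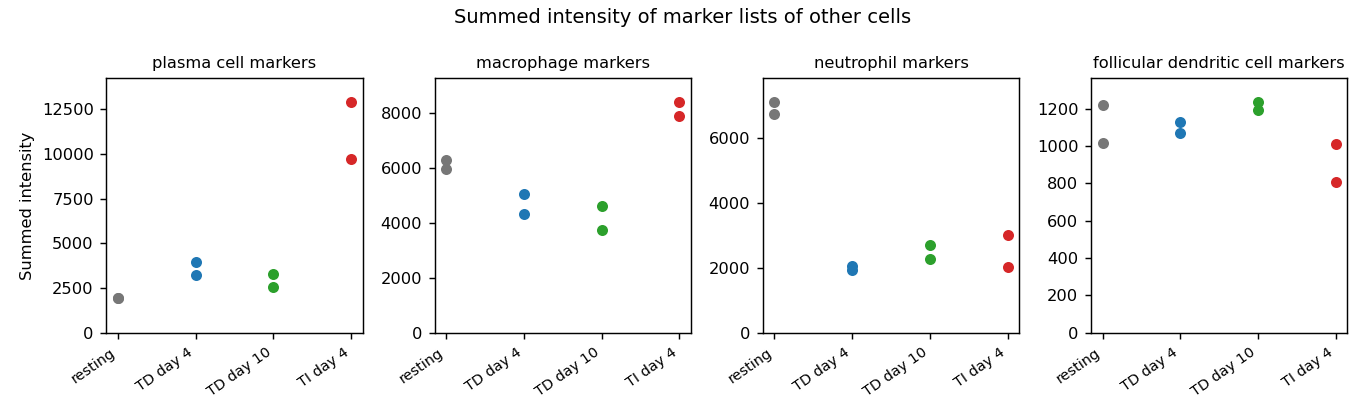
Summed intensity (values under 0 counted as 0) of marker genes of plasma cells, macrophages, neutrophils and follicular dendritic cells on each array, 1 point per array. Plasma cell and macrophage sums are highest on the TI arrays, neutrophil sums highest on the resting arrays, and follicular dendritic cell sums run from 806 to 1238 in all groups.

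Other genes of the pathway were taken from fixed lists. Among 9 tested genes of coreceptor partners and further surface receptors, 2 fell and 1 rose over the germinal centre mean, beside 5.5% and 7.73% of all probe sets. Cr2, the complement receptor of the complex that holds CD81, read 491 and 528 in resting, 235 and 336 in TD day 4, 275 and 264 in TD day 10, and 230 and 163 in TI day 4, a mean fall of 1.06 ± 0.20 (SE, adjusted p = 0.021). Pecam1, an adhesion receptor with inhibitory motifs, fell by 1.11 ± 0.22 (SE, adjusted p = 0.024), and Cd24a, a surface glycoprotein, rose by 0.63 ± 0.13 (SE, adjusted p = 0.026). Cr2 read below resting in every germinal centre group, though it was not called in TD day 4. Cd81 read above resting in TI day 4 alone, a difference of 0.48 that was not called (limma, adjusted p = 0.13). Whether the 2 genes differed from each other in this was not tested. Between TI day 4 and either T-dependent group, 0 of the 9 genes were called, beside 1.45% (TD day 4) and 2.4% (TD day 10) of all probe sets.

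Among 18 tested kinases, adaptors and phosphatases 1 fell over the germinal centre mean and none rose, beside 5.5% and 7.73% of all probe sets. The gene that fell was Sh3bp2, an adaptor under the floor on 5 arrays, lower by at least 1.02 on the log2 scale (adjusted p = 0.015). Sh3bp2 passed the filter on dim signal only through the resting arrays (204 and 137), since 1 other array was above the floor (89). Its call therefore supports nothing about the list. The median of this list was -0.081, against -0.77 for the 7 genes. Other lists lay nearer to the 7 genes, so a fall of this kind was not particular to them. Their medians were -0.61 for the other tetraspanins and -0.48 for the coreceptor partners and further receptors. For the 6 B cell markers, which include Cd79a and Cd79b, the median was -0.49. Nfatc1, a transcription factor downstream of the receptor, was in TI day 4 2.61-fold higher than in resting (adjusted p = 0.0099). Its readings were 1097 and 842 in TI day 4, 393 and 403 in TD day 4, and 220 and 266 in TD day 10. Of the 18 genes, 1 was called higher in TI day 4 than in TD day 4 and 1 than in TD day 10, beside 0.731% and 1.2% of all probe sets. In TD day 10 against resting 2 of the 18 genes fell, beside 4.44% of all probe sets. Of the kinase genes, Blk fell there by 1.08 ± 0.23 (SE, adjusted p = 0.033) and in TI day 4 gave -0.19 ± 0.23 (SE, adjusted p = 0.70). Blk read 2304 and 3306 in resting, 1476 and 1492 in TD day 4, 1195 and 1421 in TD day 10, and 2205 and 2639 in TI day 4. A call in 1 group and not in another does not show that Blk differed between them.

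Of 5 other tetraspanins tested, Cd37, Cd53 and Cd82 fell over the germinal centre mean, Cd37 by 0.96 ± 0.13 (SE, adjusted p = 0.0066), Cd53 by 0.65 ± 0.13 (SE, adjusted p = 0.024) and Cd82 by 0.61 ± 0.12 (SE, adjusted p = 0.021). Of all probe sets 5.5% fell in this comparison. Between TI day 4 and the T-dependent groups the tetraspanins went both ways. Cd37 read 2955 and 3020 in TI day 4, above all 4 T-dependent arrays (1708 to 2384), as Cd81 did, with 0.72 ± 0.16 against TD day 10 (SE, adjusted p = 0.087) and 0.44 ± 0.16 against TD day 4 (SE, adjusted p = 0.28). Cd53 read 1818 and 1621 in TI day 4, below all other arrays (2344 to 3761). Cd9 read 312 and 384 in TI day 4 and was under the floor on all 4 T-dependent arrays, a difference of at least 2.10 between TI day 4 and TD day 10 (adjusted p = 0.0496). Cd9 passed the filter on dim signal only through the TI arrays, since 1 other array was above the floor, so its call supports nothing about the list.

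Likeness of pattern was measured as Pearson's r of log2 values over the 8 arrays, against 6402 probe sets of other named genes, and is given as a description since the arrays fall into 4 groups. Within the 7 genes, Cd79b and Ptpn6 were most alike (r = 0.93), followed by Cd79a and Cd79b (0.81), and Cd72 and Fcgr2b were most opposed (-0.92). The pair Cd72 and Ptpn6 gave 0.066. Nearest to Cd79b were the MHC class I genes H2-K2 and H2-K1 and the tetraspanin gene Cd37, each at 0.99. Nearest to Cd79a were Gm15772 and the ribosomal protein gene Rpl7a (0.98 each) and B2m, the light chain of MHC class I (0.98).

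Nearest to Ptpn6 were the choline transporter-like gene Slc44a2 (0.99), the ETS factor gene Fli1 (0.98) and the phosphatase gene Ptp4a3 (0.97). Cd81 was closest to Slc4a1, the anion exchanger of red cells (0.98). Slc4a1 read 1700 and 2317 in TI day 4, 221 to 419 on the T-dependent arrays and 724 and 707 in resting. Red cell markers summed to 2333 to 2866 in TI day 4, 713 to 1277 in the T-dependent groups and 22674 to 25147 in resting over 5 genes. Slc4a1 was the 1 of 4 tested that was called higher in TI day 4 than in each T-dependent group. Over all probe sets, 0.731% were called higher against TD day 4 and 1.2% against TD day 10. Hba-a1, a globin gene, read 508 and 490 in TI day 4 and 285 to 696 on the T-dependent arrays. The part of red cell RNA in the Cd81 difference was not tested. After Slc4a1, Cd81 was most like Naxe (0.97) and Nadk, the kinase that makes NADP (0.96). Fcgr2b was closest to the small GTPase gene Rala (0.98), to Mgat2 of Golgi glycosylation (0.97) and to Sec13 of vesicle coats (0.96). For Cd22 they were Crlf3, Hibadh (0.97 each) and Atxn2 (0.97), and for Cd72 Pip4k2a (0.97), Pkib (0.96) and Snx6 (0.95).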

How the data were processed

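Total RNA from the sorted cells was extracted with RNAzol, biotin labelled and read on 8 Affymetrix arrays, per the labels' protocols. The authors deposited 1 linear intensity per probe set and array. Which software and scaling made them is not given in the sources used here. The values are whole numbers, 30.1% of them 0 or negative; averaged without the lowest and highest 2%, each array gave 200.2, so they were read as scaled, background-subtracted signals. No further normalization was applied.

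Values under 81 (the 50th percentile) were set to that floor, and log2 was taken. Probe sets above it on at least 2 arrays were kept after leaving out 66 control probe sets. Of all probe sets 10855 had 1 gene symbol, 396 several and 1237 none. The tests used limma 3.58.1 in R 4.3.3 with 1 model of 4 groups and 4 residual degrees of freedom, to which the prior added 2.20. They covered 7 comparisons, two-sided, with Benjamini-Hochberg adjustment. Precision is limited by having 2 arrays per group. The genes, lists and settings were chosen with earlier results of these data known. The named genes are all 7, the listed pathway genes that passed a test, and for each gene the 3 probe sets most like it. A fold with floored arrays is a lower bound. On simulated data for TI day 4 against TD day 4 with 7253 probe sets, limma found 80.6% of the 4-fold changes and 19.9% of the 2-fold ones. Replicate numbers are not said to mark a shared batch, and the main model did not pair the arrays by them. Same-numbered deviations from the group means had correlations of -0.22 to 0.12. With 2 arrays per group these cannot show that no arrays shared a batch. Protein sequences were not used here.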

Additional observations from a re-analysis of the deposited data

Results flagged for a closer look

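Cd81 was flagged because its response differed between germinal centre groups in a direct test. It was higher in TI day 4 than in TD day 10 by 1.00 on the log2 scale (2.00-fold, limma, adjusted p = 0.036), on 2 of 2 TI arrays against both TD day 10 arrays. With 2 arrays in each group, single arrays could not be examined for lying apart from the rest of their group.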

How the results depend on the processing

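With 2 arrays per group most calls lie near the threshold, and the directions were steadier than the calls. Over 973 refits of single genes, 854 kept direction and side of the threshold, 101 lost a call, 14 gained one and 4 changed sign. The 4 were all Cd79a: 0.11 (Gapdh ratio as covariate), 0.068 (without TD day 4 replicate 2) and 0.022 (without TI day 4 replicate 1) between TI day 4 and TD day 4 (leaving out 1 array gave -0.21 to 0.068), and -0.073 (quantile normalization) between TI day 4 and TD day 10. The number of the 7 genes called between TI day 4 and TD day 10 was 1, and became 0 with the floor at the 40th percentile, the Gapdh ratio, only the arrays compared or the replicate block, 2 with the floor at the 60th percentile or array weights, and 3 with a trended and robust prior. In TD day 4 against resting it was 2, and became 1 with quantile normalization, the floor at the 40th percentile, array weights, the Gapdh ratio or the replicate block, and 0 with only the arrays compared. In TD day 10 and TI day 4 against resting it was 3, and 0 with only the arrays compared. Over the germinal centre mean it was 6, and became 3 without a filter or with the replicate block, and 2 with array weights; only the arrays compared is the same fit there. The replicate block ended the calls of Cd22 in TI day 4 (adjusted p = 0.066), Cd79b in TD day 4 (0.070), Cd81 between TI day 4 and TD day 10 (0.085), and Cd22, Cd72 and Cd79a over the mean (0.053, 0.052 and 0.073). Leaving out 1 array gave 0 to 1 between TI day 4 and TD day 10, 0 to 2 in TD day 4, 0 to 4 in TD day 10 and in TI day 4 against resting, and 2 to 4 over the mean. The cause of these shifts was not tested, beyond fewer arrays in the fit where arrays were left out. A lone array was taken to vary like the other groups. Over all probe sets, calls in the order of TI day 4 against TD day 4, TI day 4 against TD day 10, TD day 4, TD day 10 and TI day 4 against resting, and the mean were 105, 174, 683, 790, 682 and 960. They ranged from 0 to 261, 0 to 292, 118 to 730, 195 to 863, 100 to 726 and 521 to 987, and from 0 to 14 between the T-dependent groups, where the main count was 0.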
